A study of Mus musculus with 2 samples.

Results

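The unfolded protein response and the integrated stress response were followed through 32 genes chosen by symbol: chaperones and folding enzymes of the endoplasmic reticulum (ER), genes of ER-associated degradation, the ER stress sensors, the transcription factors downstream of them, and effectors of the response to phosphorylated eIF2. All 32 symbols were found among 55536 annotated mouse genes. Ddit3 had a second, overlapping entry, read at 2.39 expected counts in replicate 1 and 1.71 in replicate 2, and this entry was left out. The cells were bone-marrow-derived macrophages of C57BL/6J mice. They received 100 ng/ml lipid A, the part of lipopolysaccharide that Toll-like receptor 4 recognises, for 12 h, were washed and left for 12 h, and received 100 ng/ml lipid A again for 75 min. Ribosome-depleted total RNA of the cytosolic fraction was sequenced as 2 biological replicates that carry the same donor code, so the spread between them may not be that between animals. Both replicates had the same treatment and no untreated cells were analysed here, so levels are described as they stood after the second stimulus and nothing below is a response to lipid A.

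Misfolded protein in the ER is sensed by the membrane proteins IRE1, encoded by Ern1, PERK, encoded by Eif2ak3, and ATF6. Active IRE1 cuts the Xbp1 message, which is then joined so that it encodes a strong activator of ER chaperone and degradation genes, and ATF6 is cleaved in the Golgi to release another activator. PERK and the other eIF2 kinases phosphorylate eIF2, which lowers general protein synthesis while the ATF4 message is translated better, and Ppp1r15a (GADD34) and Ppp1r15b (CReP) bring protein phosphatase 1 back to eIF2. Macrophages secrete large amounts of protein when stimulated, and their Toll-like receptor signalling is known to engage parts of this network.

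The promoter elements and message features by which these branches are known are shown first. Their relation to the levels below was not tested. Promoters, taken from RefSeq on GRCm38.p6 as 250 bases before to 50 bases after a gene's start, were found for 28 of the 32 members (29 promoters). No promoter was printed or searched for Hyou1, Manf, Atf6 and Ppp1r15b. The ER stress response element, recognised by ATF6 together with the factor NF-Y, was searched as CCAAT and CCACG with 9 bases between them, on both strands. It stood in the promoters of 8 members, Hspa5, Hsp90b1, Calr, Canx, Pdia6, Dnajc3, Creld2 and Syvn1, or 27.6% of member promoters, against 0.119% of all 32851 promoters and 0.122% of promoters of detected genes. The element was first described in promoters of this kind, so the members are not an independent sample of it. The sites read as follows along the gene's strand, with the defining letters in capitals, and those that begin with CGTGG are the element on the other strand:
Hspa5: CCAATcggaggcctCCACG
Hsp90b1, far site: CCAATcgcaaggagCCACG
Hsp90b1, near site: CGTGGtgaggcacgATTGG
Calr: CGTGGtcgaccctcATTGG
Canx: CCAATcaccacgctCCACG
Pdia6: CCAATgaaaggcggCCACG
Dnajc3: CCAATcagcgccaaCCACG
Creld2: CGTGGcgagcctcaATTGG
Syvn1: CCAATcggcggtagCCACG

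Of the 5 chaperone and lectin genes with a promoter, 4 held the ER stress response element, and so did 1 of 4 disulfide isomerase genes, 1 of 3 J-domain genes and 1 of 4 degradation genes. It was found in none of the 4 transcription factor genes and none of the 5 integrated stress response effectors. The core of the C/EBP-ATF element, bound by ATF4 with its partners, was searched as TGATGNAA on both strands. It stood in 3 of the 5 effector promoters, those of Trib3, Asns and Chac1, and in that of Herpud1, a degradation gene, or 13.8% of member promoters, against 3.97% of all promoters and 2.32% of promoters of detected genes. No member held both elements in the forms searched. Forms of the ER stress response element with parts oriented otherwise, such as ATTGG close to CCACG in the Herpud1 promoter, were not searched. A match of letters is not a bound site, and sites outside these windows were not looked for.

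**Figure D1:**
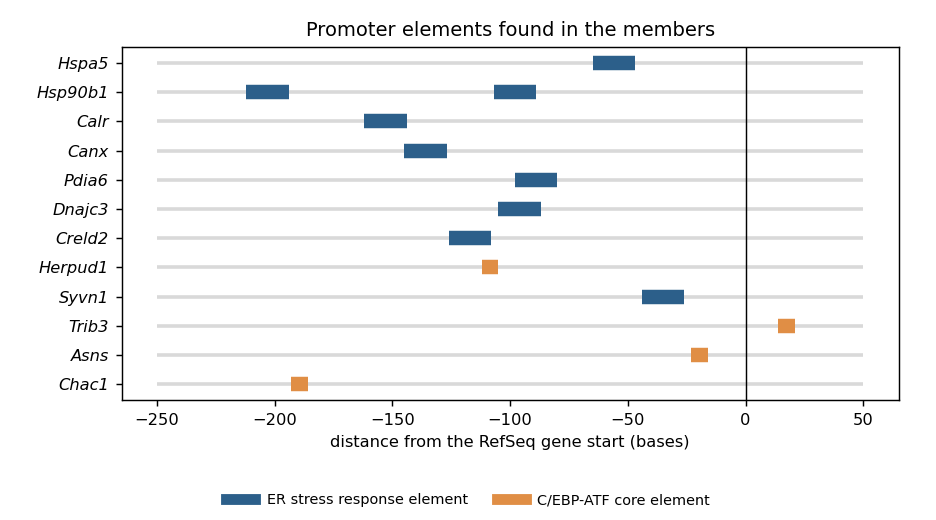
Positions of both elements in member promoters, as distance in bases from the RefSeq gene start, with 1 line for each gene that held one. The 8 genes with the ER stress response element (blue) carry it within 212 bases before the start, and the 4 with the C/EBP-ATF core (orange) lie between 193 bases before and 21 bases after it.

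The promoter of Hspa5, which encodes the main ER Hsp70 (BiP), is given whole as an example of the first element, at chr2:34771840-34772139 on the plus strand, with the element in capitals:
Hspa5 promoter: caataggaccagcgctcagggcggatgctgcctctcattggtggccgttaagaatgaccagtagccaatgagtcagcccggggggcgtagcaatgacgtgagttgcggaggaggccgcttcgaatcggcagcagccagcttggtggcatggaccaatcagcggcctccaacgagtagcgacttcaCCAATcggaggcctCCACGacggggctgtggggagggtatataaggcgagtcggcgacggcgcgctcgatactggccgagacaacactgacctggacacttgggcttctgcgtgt
That of Asns, which encodes asparagine synthetase, a standard target of ATF4, is given as an example of the second, at chr6:7693160-7693459 on the minus strand, with the core in capitals:
Asns promoter: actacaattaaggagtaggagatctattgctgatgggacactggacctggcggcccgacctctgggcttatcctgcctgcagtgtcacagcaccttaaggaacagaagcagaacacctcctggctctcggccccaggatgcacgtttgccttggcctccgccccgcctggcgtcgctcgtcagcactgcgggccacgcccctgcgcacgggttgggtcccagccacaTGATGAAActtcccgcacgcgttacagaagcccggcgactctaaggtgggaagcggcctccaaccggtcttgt

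A second sequence concerns what the libraries can show for Xbp1. The 26 bases that IRE1 removes lie in exon 4 of Xbp1-201, within its coding sequence, at chr11:5524279-5524304 on the plus strand (GRCm38), and are shown in capitals between 12 flanking bases on each side. The site was found as a pair of the loop letters that IRE1 recognises, CNGCNG, placed 26 bases apart, and such a pair also occurs in exon 1, which is not the known site:
Xbp1 exon 4: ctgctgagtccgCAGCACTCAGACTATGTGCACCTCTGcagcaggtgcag
Of the 4 annotated Xbp1 transcripts, 3 contain this segment and 0 have an annotated gap of 26 bases. Spliced and unspliced Xbp1 were therefore counted together, and the Xbp1 level below says nothing about IRE1 activity.

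In 7 of 32 members the coding sequence ended with GAT or GAC, then GAA or GAG, then a leucine codon before the stop. The same held for 17 of 8583 other detected protein-coding genes (0.198%). These letters are the DNA of the DEL ending of KDEL, the signal that returns proteins to the ER. Variants of the signal with other letters were not counted. Members without these letters, such as Pdia3 and Pdia4, may still carry one. The 7 members were 5 of 6 chaperone genes and 2 of 4 disulfide isomerase genes. The ends of 4 of these 7 are shown with the last 4 codons in capitals and the stop in lower case, followed by abundant members of the same roles without these letters, Pdia3, the most abundant isomerase, and Canx, whose protein is anchored in the membrane:
Hspa5: AAAGATGAGTTGtag
Calr: AAGGATGAGCTGtag
Hsp90b1: AAGGATGAATTGtaa
P4hb: AAGGATGAACTGtag
Pdia3: CAAGAGGACCTCtaa
Canx: CCACGAAGAGAGtga

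At the other end of the messages, in the leading coding transcript at least 1 ATG lay upstream of the coding start in 14 of 32 members (43.8%), against 47.3% of 8583 other detected genes, so the members as a whole were no richer in upstream ATGs. The 4 transcription factors all had one, with 3 in Atf4, 2 each in Atf5 and Ddit3 and 1 in Xbp1. Of the 6 effectors, Ppp1r15a and Ppp1r15b had 3 each, Asns 2, Sesn2 1, and Trib3 and Chac1 0. Outside these groups Dnajb9 and Eif2ak3 also had 3 each, Manf had 2, and Hyou1, P4hb and Edem1 had 1 each. The median length before the coding start was 354.5 bases in the factors and 229.5 in the effectors, against 152 in other detected genes. The ATG counts were not adjusted for this length. Upstream reading frames are known to let Atf4, Atf5, Ddit3 and both Ppp1r15 messages be translated when eIF2 is phosphorylated.

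The libraries held 64187219 expected counts on genes in replicate 1 and 49429864 in replicate 2, of which the members took 0.567% and 0.571%. The least counted member, Chac1, had 415 and 179 counts, so counting error is small for all of them. TPM (a level per transcript length, scaled to the same total in each library) was compressed by the small cytosolic 7SL RNA, which made up 62.9% of TPM in replicate 1 and 60.3% in replicate 2. Macrophage identity was clear: all 12 macrophage markers stood at 10 TPM or more, with sums of 7390 TPM in replicate 1 and 8004 TPM in replicate 2, 8 of them at 100 TPM or more. B and plasma cell markers, relevant because plasma cells are rich in these messages, summed to 21.2 TPM in replicate 1 and 15.3 TPM in replicate 2, most of it Prdm1, which macrophages also express, at 18.1 and 11.9 TPM. Mzb1 and Tnfrsf17 were at 0 in both replicates, and Jchain was at 0.02 TPM in replicate 1 and 0.04 TPM in replicate 2. Sums for the other lineages in replicates 1 and 2 were 16.8 and 14.1 TPM for T and natural killer cells (almost all Cd4), 7.50 and 13.4 TPM for neutrophils, 455 and 504 TPM for dendritic cells (almost all Bst2, an interferon-induced gene), 2.95 and 3.51 TPM for stroma and endothelium, and 88.3 and 71.5 TPM for erythroid cells and megakaryocytes (almost all Pf4). In such bulk RNA fewer cells of a type and less RNA per cell cannot be told apart. Most chaperone and isomerase messages are translated at the ER membrane, and how much of that membrane the cytosolic fraction kept is not given in the sources used here.

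The replicates differed in RNA classes outside the members, and the part of this in the member differences below was not tested. In lists chosen after the data were seen, 14 of 14 immediate early genes were higher in replicate 1, with a median log2 ratio of 0.73, and took 0.753% of counts there and 0.448% in replicate 2. Mitochondrial messages took 0.190% of counts in replicate 1 and 0.336% in replicate 2, and 1 of 13 was higher in replicate 1. Nuclear-retained RNAs took 0.0825% and 0.252%, with Malat1, a nuclear speckle RNA, at 132 TPM in replicate 1 and 384 TPM in replicate 2. Adgre1, the macrophage surface marker F4/80, stood at 358 TPM in replicate 1 and 706 TPM in replicate 2.

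The stress response messages were broadly present. At 1 TPM or more in both replicates, 31 of 32 members were detected, against 16.7% of all annotated genes and 40% of protein-coding genes. High levels (100 TPM or more in both replicates) were found for 3 members, moderate levels (10 to under 100) for 18 and low levels (1 to under 10) for 10, each gene being placed by its lower replicate. Among all detected genes 4.34% were high. The 3 high members were Hspa5, Calr and Ppp1r15a, and their number depended on the table. A second deposited table, estimated from reads and not from alignments (the read-based table), put them at 104, 98.9 and 177 TPM in replicate 1. In replicate 2 it put them at 76.3, 97.6 and 42.0 TPM, all under 100. From alignments, the full-length Ppp1r15a transcript alone was at 92.5 TPM in replicate 2. The median member stood at 17.85 TPM in replicate 1 and 17.8 TPM in replicate 2 (17.8 ± 0.053, SD, n = 2), beside medians of 7.83 and 7.17 TPM over detected genes, and 25 members were above those medians in both replicates. These near-equal member medians do not mean that single members were equal. In the read-based table the member medians were 10.6 TPM in replicate 1 and 8.04 TPM in replicate 2.

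**Figure D2:**
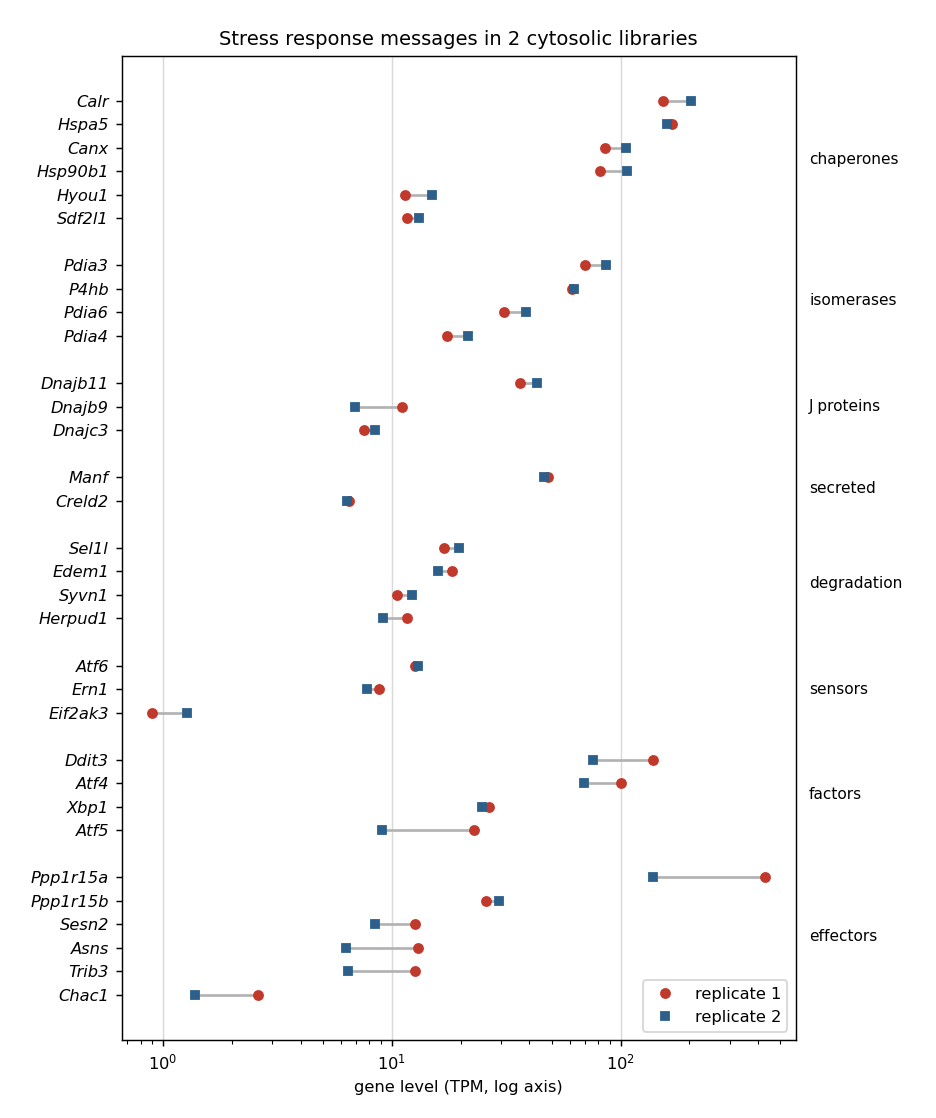
Gene level in TPM (log axis) of the 32 members in replicate 1 (red circles) and replicate 2 (blue squares), grouped by role, with a grey line joining the replicates. Chaperones and Ppp1r15a reach above 100 TPM, Eif2ak3 lies near 1 TPM, and the widest lines belong to transcription factors and effectors, with Ppp1r15a at 428 and 139 TPM.

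Chaperones of the ER were the most abundant group, with a median of 83.2 TPM in replicate 1 and 106.5 TPM in replicate 2. Hspa5 (chr2:34771970-34777547, plus strand) stood at 168 TPM in replicate 1 and 159 TPM in replicate 2. Calr (chr8:84841850-84846934, minus strand), the calcium-binding lectin chaperone calreticulin, stood at 153 and 202 TPM, and Canx, its membrane-bound counterpart calnexin, at 85.3 and 106 TPM. Hsp90b1, the ER Hsp90 (GRP94), stood at 81.2 TPM in replicate 1 and 107 TPM in replicate 2. The remaining members of the group were lower. Hyou1, the large Hsp70-like exchange factor of BiP, had 11.4 TPM in replicate 1 and 15.02 TPM in replicate 2, and Sdf2l1, an ER cofactor of BiP and its J proteins, had 11.6 and 13.2 TPM.

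The disulfide isomerases, which form and rearrange disulfide bonds, had medians of 46.3 TPM in replicate 1 and 50.7 TPM in replicate 2. Pdia3, the partner of calreticulin and calnexin, led them at 69.7 and 86.1 TPM. P4hb, the classical isomerase, followed at 61.7 TPM in replicate 1 and 62.6 TPM in replicate 2, then Pdia6 at 30.9 and 38.7 TPM and Pdia4 at 17.4 and 21.5 TPM. The J-domain co-chaperones, which drive the ATPase of BiP, were spread more widely. Dnajb11 (ERdj3) stood at 36.5 TPM in replicate 1 and 43.1 TPM in replicate 2, and Dnajc3 (p58IPK) at 7.60 and 8.48 TPM. Dnajb9 (ERdj4), a textbook target of spliced XBP1, had 11.1 TPM in replicate 1 and 6.91 TPM in replicate 2 and was the one J-domain gene higher in replicate 1.

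Among stress-secreted proteins, Manf, a secreted ER protein that protects stressed cells, stood at 48.2 TPM in replicate 1 and 46.5 TPM in replicate 2, and Creld2 at 6.49 and 6.38 TPM. The 4 degradation genes lay close together. Edem1, a lectin-like mannosidase that marks misfolded glycoproteins, had 18.3 TPM in replicate 1 and 15.9 TPM in replicate 2, and Sel1l, the scaffold of the HRD1 ubiquitin ligase, had 16.9 and 19.7 TPM. Herpud1, a membrane organiser of that ligase, had 11.6 TPM in replicate 1 and 9.16 TPM in replicate 2, and Syvn1, the ligase HRD1 itself, had 10.6 and 12.3 TPM.

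The 3 stress sensors had a median of 8.81 TPM in replicate 1 and 7.81 TPM in replicate 2. That of the effectors was 12.9 TPM in replicate 1 and 7.46 TPM in replicate 2, so the order of these groups differed between replicates. Atf6 stood at 12.6 TPM in replicate 1 and 13.1 TPM in replicate 2, and Ern1 at 8.81 and 7.81 TPM. Eif2ak3 was the only member not detected by the rule of 1 TPM in both replicates, at 0.90 TPM in replicate 1 and 1.28 TPM in replicate 2, on 434 and 495 counts, so it was read at a low level and not absent. On the log2(TPM + 0.1) scale the median of the 10 chaperones and isomerases exceeded that of the 3 sensors by 2.88 in replicate 1 and 3.22 in replicate 2 (3.05 ± 0.24, SD, n = 2). Hspa5 was 186 times as abundant as Eif2ak3 in replicate 1 and 124 times in replicate 2 on the TPM scale.

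Of the transcription factors, Ddit3 (chr10:127290774-127296288, plus strand), which encodes CHOP, the factor linked to death of stressed cells, stood at 139 TPM in replicate 1 and 75.7 TPM in replicate 2. Atf4 (chr15:80255184-80257541, plus strand), the central factor of the integrated stress response, stood at 101 and 69.5 TPM. Xbp1 (chr11:5520659-5525893, plus strand) had nearly equal levels of 26.6 TPM in replicate 1 and 24.7 TPM in replicate 2. Atf5 (chr7:44812256-44816658, minus strand), a relative of ATF4 that also acts in the mitochondrial stress response, had 23.0 TPM in replicate 1 and 9.04 TPM in replicate 2. In order of mean level the factors ran Ddit3, Atf4, Xbp1 and Atf5, and the order was the same within each replicate. Across replicates the ranges of Ddit3 and Atf4 overlapped, and Atf5 in replicate 1 came close to Xbp1.

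Ppp1r15a (chr7:45522916-45526268, minus strand) was the most abundant member in replicate 1, at 428 TPM, and stood at 139 TPM in replicate 2, where Calr and Hspa5 were higher. In replicate 2 of the read-based table Ppp1r15a stood at 42.0 TPM, and Canx (54.0 TPM) and Hsp90b1 (46.4 TPM) were higher as well. Ppp1r15b, which keeps eIF2 dephosphorylated in unstressed cells, had 25.8 TPM in replicate 1 and 29.3 TPM in replicate 2. The other effectors were low or at the low end of moderate. Asns stood at 13.0 TPM in replicate 1 and 6.32 TPM in replicate 2, Trib3, a pseudokinase that restrains ATF4 and CHOP, at 12.6 and 6.46 TPM, and Sesn2, a leucine-binding brake on mTORC1, at 12.7 and 8.45 TPM. Chac1, which degrades glutathione, was the lowest effector, at 2.61 TPM in replicate 1 and 1.38 TPM in replicate 2.

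The transcript tables say which messages carried these levels. In 30 of 32 members the same transcript led in both replicates and in both the alignment-based and the read-based table. From alignments, the leading transcript held 90% or more of the gene's TPM in both replicates in 20 members. Xbp1-201 held 99.2% of Xbp1 in replicate 1 and 97.7% in replicate 2, Atf4-201 held 99.7% and 99.3% of Atf4, Ddit3-201 held 96.2% in both, and Atf5-201 held 92.7% and 89.2% of Atf5. Of the members' expected counts, 2.91% in replicate 1 and 3.11% in replicate 2 fell on transcripts not annotated as protein-coding (3.01 ± 0.14%, SD, n = 2), beside 3.58% and 3.57% over all protein-coding genes.

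In the alignment-based table, 4 members had a transcript other than the leading one at 20% or more of TPM in both replicates. The list depended on the table. In the read-based table Ppp1r15a fell below this limit, while Calr, Canx and Hspa5 passed it. There Calr-204 held 34.4% of Calr in replicate 1 and 27.03% in replicate 2. The processed transcript Canx-202 held 27.5% and 24.97% of Canx, and Hspa5-204 held 23.45% and 20.9% of Hspa5. Manf-205, a retained-intron transcript of 502 bases, held 34.3% of Manf in replicate 1 and 34.2% in replicate 2. The processed transcript Ppp1r15b-202 held 51.6% of Ppp1r15b in replicate 1 and 45.2% in replicate 2 by TPM, and 36.2% and 25.3% in the read-based table, so which Ppp1r15b transcript led depended on the table and the replicate. Syvn1-201 and Syvn1-204, both protein-coding, held 53.5% and 37.2% in replicate 1 and 51.95% and 31.9% in replicate 2, and the read-based table put Syvn1-204 first, at 53.2% in replicate 1 and 45.95% in replicate 2.

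For Ppp1r15a the second transcript bears on the gene's level. Ppp1r15a-203, of 389 bases, held 38.6% of the gene's TPM in replicate 1 and 33.2% in replicate 2 on only 4.85% and 3.70% of its counts, since TPM divides by length. In the read-based table it held 11.0% of TPM in replicate 1 and 0.892% in replicate 2. The full-length Ppp1r15a-201 alone stood at 262 TPM in replicate 1 and 92.5 TPM in replicate 2. Short transcripts weighed in the same way in Hspa5, where Hspa5-204, a target of nonsense-mediated decay of 477 bases, held 15.8% of TPM in replicate 1 and 12.5% in replicate 2 on 1.88% and 1.37% of counts, and in Calr, where the retained-intron Calr-204 held 21.6% and 16.8% of TPM on 9.22% and 6.86% of counts.

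The replicates were then set against each other, each difference being given as the log2 ratio of replicate 1 over replicate 2 of counts scaled by the trimmed mean of M values (TMM). Because each side is 1 library, the exact binomial test compares these libraries and covers counting error only; by it 28 of 32 members and 55.9% of the 13298 genes tested differed at an adjusted p under 0.05 with no minimum fold. At 2-fold or more, 2 members were called higher in replicate 1, against 2.47% of all genes tested and 0.926% of genes detected at 1 TPM in both, and 0 were called lower, against 2.9% and 0.905%. At 1.5-fold or more, 6 were called higher, against 6.62% of all genes tested, and 0 lower, against 6.1%. Over all members the median log2 ratio was −0.12, beside 0.04 over all genes tested and 0.05 over detected genes, so the set as a whole did not stand higher in either replicate.

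The members divided by role. All 4 transcription factors had a higher value in replicate 1, by a median log2 ratio of 0.63, and so had 5 of 6 effectors, by a median of 0.85. All 6 chaperones and all 4 isomerases were lower in replicate 1, by medians of −0.43 and −0.39, except that Hspa5 turned to 0.08 on the log2(TPM + 1) scale. Of the 22 members outside the factors and effectors, 4 were higher in replicate 1, namely Dnajb9, Herpud1, Edem1 and Ern1. The 4 members that did not differ beyond counting error were Manf, Creld2, Ern1 and Xbp1, with ratios from −0.06 to 0.03 and exact binomial adjusted p of 0.18, 0.54, 0.61 and 0.42 in that order. Summed TPM of the 10 factors and effectors was 784 in replicate 1 and 370 in replicate 2, while that of the 10 chaperones and isomerases was 690 in replicate 1 and 811 in replicate 2. Ppp1r15a alone gave 428 TPM of the factor and effector sum in replicate 1 and 139 TPM in replicate 2, so much of that difference was from this gene. In the read-based table the sum of the factors and effectors was 382 TPM in replicate 1 and 141 TPM in replicate 2, and that of the chaperones and isomerases was 422 and 377 TPM, so the direction of this second sum depended on the table, while the ratios of TMM-scaled counts of all 10 genes were below 0 in both tables.

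Ppp1r15a differed most, with 65442 counts in replicate 1 and 18693 in replicate 2, a log2 ratio of 1.43 (2.70-fold). Atf5 followed, with 4093 and 1315 counts and a log2 ratio of 1.26 (2.40-fold; exact binomial test, adjusted p = 8.1e-188). With a biological coefficient of variation assumed at 0.2 in edgeR's exact test, 0 members were called, against 0.361% of genes higher and 0.677% lower (adjusted p = 0.057 for Ppp1r15a and 0.16 for Atf5), so these differences exceed counting error but not that assumed spread. Asns (0.95), Trib3 (0.87), Chac1 (0.84) and Ddit3 (0.80) made up the rest of those past 1.5-fold, and all 6 lay above the central 95% of detected genes, −0.65 to 0.73. Sesn2 (0.50) and Atf4 (0.45) lay within it.

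At the other end, Eif2ak3 had a log2 ratio of −0.57 and Calr −0.55, and 0 members lay below the central 95%. Ppp1r15a and Ppp1r15b, which serve the same phosphatase, had ratios of 1.43 and −0.32. The sign was the same in the read-based table for 31 of 32 members and on the log2(TPM + 1) scale for 29 of 32, the exceptions being Creld2 in both, and Hspa5 and Manf on the TPM scale. Several members share positions with other genes, and strand use in counting was not given in the sources used here. The other gene had 10 or more counts in both replicates for 7 members. Atf5 overlaps Nup62 on the opposite strand, which had 3737 counts in replicate 1 and 2234 in replicate 2. Ddit3 overlaps Mars on the opposite strand, with 1559 and 1085 counts. Manf overlaps Rbm15b on the same strand, with 1416 counts in replicate 1 and 1251 in replicate 2.

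**Figure D3:**
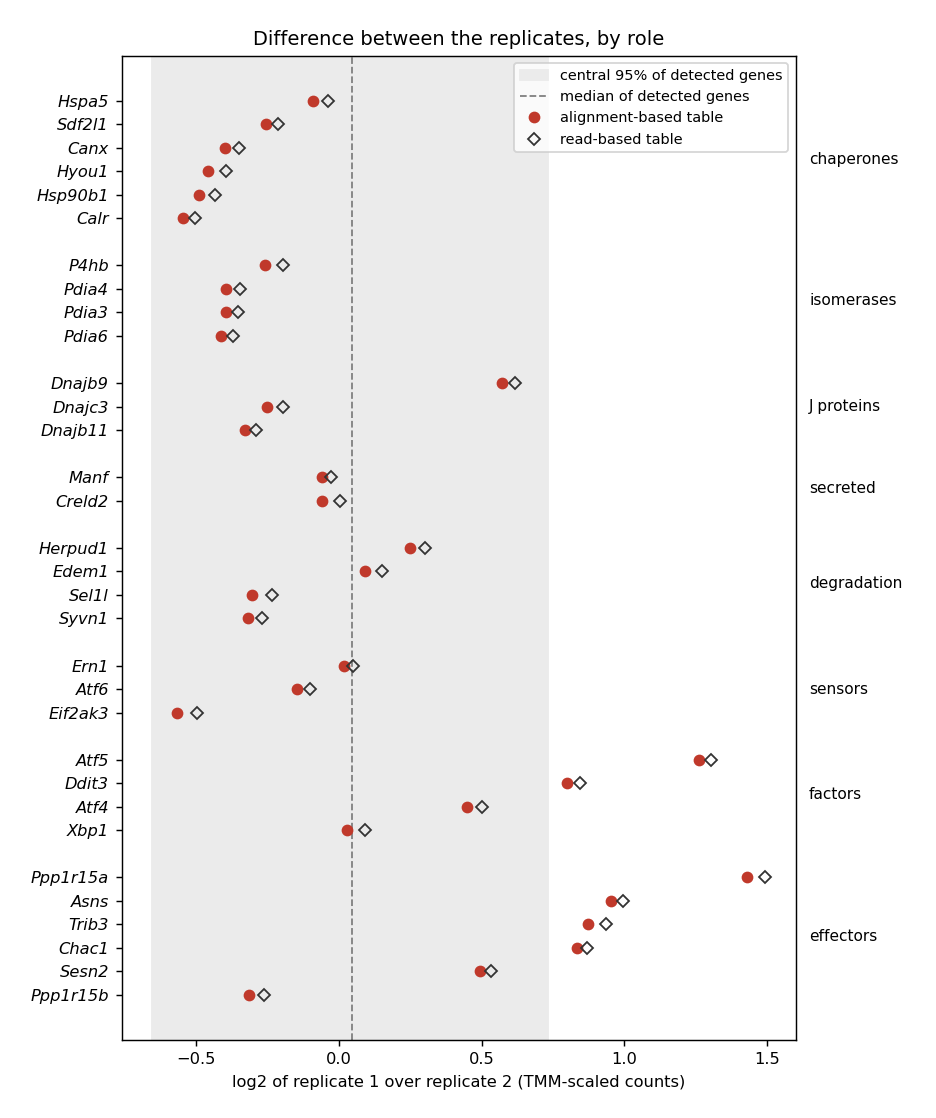
Log2 ratio of replicate 1 over replicate 2 for each member, grouped by role, from the alignment-based table (red circles) and the read-based table (open diamonds). The grey band is the central 95% of detected genes, −0.65 to 0.73, and 6 members, all transcription factors or effectors, lie to its right.

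Other genes of the same pathways, in 8 lists that hold none of the members, were read for comparison, and 5 of these lists had 0 genes called in either direction at 1.5-fold. In the folding and oxidation list 1 of 18 genes was high, 7 moderate, 8 low and 2 not detected. Serp1, a translocon-associated stress protein, led at 118 TPM in replicate 1 and 117 TPM in replicate 2, followed by the prolyl isomerase Ppib at 92.5 and 95.8 TPM and the ER protein Erp29 at 68.2 and 74.6 TPM, while the prolyl isomerase Fkbp11 was at 0.03 TPM and 0. Their median log2 ratio was −0.13, with 3 of 17 tested higher in replicate 1. Further degradation genes were moderate in 12 of 16 cases, low in 3 and not detected in 1, with Aup1, a lipid droplet and degradation factor, at 120 TPM in replicate 1 and 94.6 TPM in replicate 2, the ATPase Vcp at 46.3 and 53.1 TPM, the lectin Os9 at 37.3 and 42.7 TPM, and Derl3 lowest at 0.06 and 0.16 TPM (median log2 ratio −0.08).

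Translocon and export genes were moderate in 15 of 18 cases and low in 3. Spcs1, a signal peptidase subunit, had 71.2 TPM in replicate 1 and 57.9 TPM in replicate 2, Ssr3 50.9 and 47.2 TPM, Sec61b 41.9 and 27.4 TPM, and Sec61g, the lowest, 4.90 and 4.17 TPM, with a list median log2 ratio of −0.06. The next list held stress-linked bZIP factors together with processing and partner genes that are not bZIP factors. Atf3, a stress-induced repressor, led it at 187 TPM in replicate 1 and 91.1 TPM in replicate 2 (log2 ratio 0.95). Cebpb followed at 41.9 and 45.8 TPM, then Nfya, a subunit of NF-Y, at 21.1 and 19.65 TPM. Creb3l3 was lowest, at 0.31 and 0.23 TPM, and the list median was 0.02. Of the 15 genes, 6 were moderate, 6 low and 3 not detected, and 2, Atf3 and Creb3l1, were called higher in replicate 1 at 1.5-fold. Of 13 genes for eIF2 kinases, eIF2 and its exchange factor, 6 were moderate and 7 low. Ppp1ca, the phosphatase subunit that Ppp1r15a recruits, had 81.7 TPM in replicate 1 and 67.9 TPM in replicate 2, and the list median was 0.08. The kinase PKR (Eif2ak2) had 31.3 and 30.7 TPM, far above Eif2ak3, and the adaptor Nck1 had 21.4 and 14.2 TPM. The kinase GCN2 (Eif2ak4) had the lowest mean level, at 1.97 and 2.08 TPM, though Eif2b3 was lower in replicate 2, at 1.92 TPM.

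Of the 8 lists, the 2 of genes known to respond to ATF4 had the highest median ratios. Over all genes tested the median log2 ratio was 0.04, with 2.47% called higher in replicate 1 at 2-fold and 6.62% at 1.5-fold. Of 21 matched amino acid genes, 1 was high, 8 moderate, 9 low and 3 not detected; 19 were tested and 18 of these were higher in replicate 1, with a median log2 ratio of 0.26. Called at 2-fold were 2: Slc7a11, the cystine transporter, at 2.29 TPM in replicate 1 and 0.92 TPM in replicate 2, and Phgdh, the first enzyme of serine synthesis, at 3.74 and 1.74 TPM. The most abundant were Slc3a2, the heavy chain of amino acid transporters, at 152 TPM in replicate 1 and 143 TPM in replicate 2, and the tRNA synthetases Nars at 43.5 and 31.97 TPM and Sars at 42.9 and 26.1 TPM, while Cth was at 0.02 and 0.01 TPM. At 1.5-fold, 4 of these genes were called higher in replicate 1, the other two being Sars and Slc38a2. Of the 13 ATF4-linked stress genes, 5 were not detected, 2 low, 3 moderate and 3 high; 10 were tested and 10 were higher in replicate 1, with a median of 0.61. Sqstm1, the autophagy receptor p62, stood at 630 TPM in replicate 1 and 287 TPM in replicate 2 and was the one called at 2-fold, while 5 were called at 1.5-fold, the others being Cdkn1a, Gdf15, Nupr1 and Eif4ebp1. Cdkn1a, the cell cycle inhibitor p21, stood at 275 and 163 TPM and Gdf15, a stress-induced cytokine, at 193 and 108 TPM, while Fgf21 was listed at 0 in both. Many of these genes also answer to other signals, and immediate early genes also stood higher in replicate 1, so the part of ATF4 in this difference was not tested.

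The mitochondrial unfolded protein response list had a median log2 ratio of 0.21, with 4 of 8 genes moderate and 4 low. The mitochondrial Hsp70 Hspa9 had 74.1 TPM in replicate 1 and 54.3 TPM in replicate 2, the chaperonins Hspe1 and Hspd1 had 56.4 and 40.1 TPM and 36.4 and 33.9 TPM, and the protease subunit Clpx had 4.48 and 4.52 TPM.

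**Figure D4:**
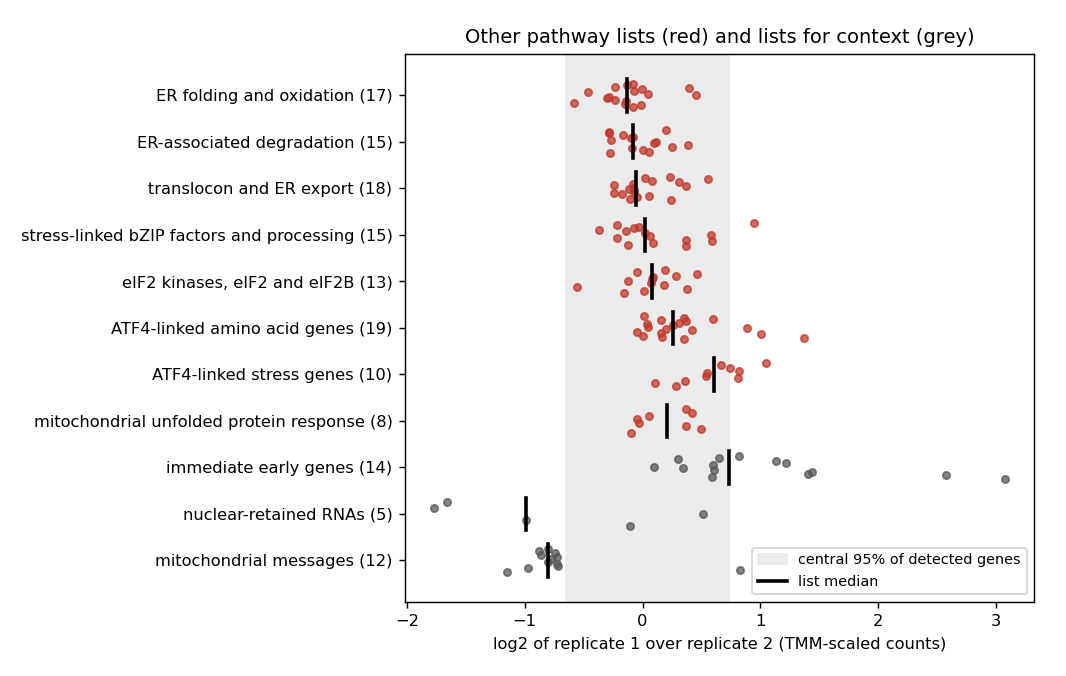
Log2 ratio of replicate 1 over replicate 2 for tested genes of the 8 other pathway lists (red) and of 3 lists chosen for context after the data were seen (grey), with a black bar at each list median and the number of genes drawn in brackets. The ATF4-linked stress genes (median 0.61) and the immediate early genes (0.73) lie to the right, and the mitochondrial messages (−0.80) lie to the left; 1 mitochondrial message at 0 in replicate 1 is not drawn.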

How the data were processed

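Cytosolic total RNA-seq libraries of 2 biological replicates of the same treatment were analysed. Per the file headers, the deposited gene and alignment-based transcript tables came from transcriptome alignments and the read-based table from the reads, on mm10 with GENCODE M21; the software is not given in the sources used here. The authors deposited expected counts (estimated, rounded here for tests), TPM and FPKM, and the percent of a gene's TPM held by each transcript. Estimated counts and TPM of the read-based table, as deposited, were summed by gene. TPM was used as deposited, and genes with a mean count of at least 10 were compared between replicates with a two-sided exact binomial test on TMM-scaled totals (edgeR 4.0.16) and Benjamini-Hochberg adjustment over all genes tested; a call needed an adjusted p under 0.05 and 2-fold. The procedure was tested on simulated data. Alternatives were edgeR's exact test at assumed coefficients of variation of 0.1 and 0.2, DESeq2 1.42.0 size factors, other scales and the read-based table. P-values measure the difference of these libraries only. The members and lists were chosen with earlier results of these data known. All members were named; of other lists, the 3 highest and the lowest by mean TPM, and, chosen after their values were seen, those called at 2-fold or 1.5-fold. One listed symbol, Mars1, was not matched. No protein sequences were used here.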

Additional observations from a re-analysis of the deposited data

How the results depend on the processing

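No paired analysis was possible because both libraries belong to 1 group. The median member level, 17.8 TPM, was 63.7 after rescaling TPM to protein-coding genes, 9.30 in the read-based table and 32.2 in FPKM, which are other scales. The gap between chaperones and sensors, 3.05 on the log2 scale, was 2.74 when only members at 1 TPM or more in both replicates, which leaves out Eif2ak3, were used. The 2 members called apart became 0 at an assumed coefficient of variation of 0.2 and 6 at 1.5-fold. The percent of counts outside protein-coding transcripts, 3.01, was 3.65 in the read-based table and 6.998 by TPM. Leaving out each replicate in turn gave 31 to 32 members detected, medians of 17.775 to 17.85 TPM, gaps of 2.88 to 3.22 and noncoding shares of 2.91% to 3.11%. The 23 other values under alternatives to these summary results, and 16 for the median ratios of the 4 role groups, an alternative set added after the data were seen, moved less than their limits, and none changed direction. Even so, the median log2 ratio of all members, −0.12 with TMM, shrank to −0.0004 on the log2(TPM + 1) scale. With 2 libraries of 1 group, no spread between animals could be estimated.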
